A study of Mus musculus with 31 samples.

Results

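Prox1, Hsf4, Foxe3, Pitx3, Gata3, Sox1, Maf and Tdrd7, 8 genes that regulate formation of the mouse lens, were followed in embryonic eyes with and without the long non-coding RNA gene Ftx, to learn whether they moved with the structural genes of the lens. They were found by gene name among the non-control probes of the array, which gave 8 of 34832 gene names and 10 of 55681 probes. Of these 10 probes, 9 passed the minimum signal for testing, as did 21457 probes in all, and each of the 8 genes kept at least 1 probe.

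The study asked how loss of Ftx, which lies within the region of the X chromosome that controls X inactivation, alters the developing eye. Eyes of C57BL/6N mice were taken at embryonic day 13.5 (E13.5), after surgical removal of the pigmented epithelium, and all were of normal outer appearance. The groups were 3 WT female, 3 WT male, 11 Ftx KO female (both X chromosomes mutant, Ftx-/-) and 3 Ftx KO male (Ftx-/Y) eyes. The deletion was made in ES cells, is present in every tissue and, with Ftx, ends expression of miRNA374 and miRNA421, microRNAs encoded in an Ftx intron. The labels do not say which eyes share an embryo or a litter, so the p-values measure only the spread between these eyes.

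The lens is built from 2 cell states, a front layer of dividing epithelium and the elongated fibre cells that it feeds. Foxe3 and Pitx3 act in the epithelium, where Foxe3 keeps cells dividing and Pitx3 maintains the epithelial state. Prox1, Maf, Sox1, Gata3 and Hsf4 act as cells leave the cycle and turn into fibres, and Maf, Sox1 and Hsf4 bind directly to crystallin genes. Tdrd7 is not a DNA-binding factor but a protein of cytoplasmic RNA granules that is needed for a clear lens. Not all of them belong to the lens alone, since Prox1 is also active in the retina, in progenitors and horizontal cells. The crystallins, the intermediate filament proteins Bfsp1 and Bfsp2, and the membrane proteins Mip, Lim2 and Gja3 are the structural products of the fibres.

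Every signal below is what a 60-base probe captured, and the first 30 bases of each probe are shown because 2 genes have a second probe whose level or position differs. They are written in the direction of the mRNA, with the mm9 position of the whole probe from the files.
Prox1 A_55_P2048751, chr1:191945785-191945844, minus strand: acgtttgttttcttagctggatttttgtgt
Hsf4 A_55_P2044613, chr8:107799573-107799632, plus strand: tgaaaaagcctggctaaggaactagcacgc
Foxe3 A_55_P2119009, chr4:114597752-114597811, minus strand: gccggggaagcctacctgagacagccgggc
Pitx3 A_51_P477614, chr19:46210179-46210238, minus strand: ttctccagactccccctatcccattttcaa
Gata3 A_66_P111011, chr2:9779551-9779610, minus strand: ttaaggaatatagggggattaaagtatgga
Sox1 A_55_P2012056, chr8:12399496-12399555, plus strand: ttcaagaatgacgcccactgctttctgatg
Sox1 A_55_P2012051, chr8:12397503-12397562, plus strand: cgtcaacggcacggtgcccctgacgcacat
Tdrd7 A_55_P1999213, chr4:46047484-46047543, plus strand: ggctctgactgttgtggaggattgaaaaga
Maf A_51_P405167, chr8:118227736-118227795, minus strand: tgggtatgtgtagttcttgctataccatgg
Maf A_55_P1962429, chr8:118207273-118207332, minus strand: gaacaagccttggtttacattagaataacg
The brighter tested probe represents a gene. Sox1 A_55_P2012051 read only 56.8 to 104 in any eye and stayed under the minimum of 100 used for testing. No member probe was marked as saturated on any array, and all 10 were well above background on every array.

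A few properties of the series bear on these values. Ftx has 2 probes, listed under the older name B230206F22Rik. A_55_P2175002 read 50.04 to 134 in WT females, 101 to 110 in WT males, 13.2 to 18.6 in Ftx KO males and 8.25 to 37.4 in Ftx KO females. It was well above background on every WT array, in no Ftx KO male and on 9 of the 22 arrays of Ftx KO females, and its place relative to the deletion was not determined. The other, A_55_P2175007, read 23.0 to 49.6 in WT females, 6.36 to 20.1 in Ftx KO females, 13.8 to 22.1 in WT males and 6.39 to 18.6 in Ftx KO males. It stood clear of background on 2 of 3 arrays of WT females, 1 of 22 of Ftx KO females and none of the males. Each Ftx KO female eye was measured on 2 arrays, which were averaged. All WT eyes and Ftx KO male eye 1 shared slide 1, Ftx KO male eyes 2 and 3 and Ftx KO female eyes 1 to 3 shared slide 2, and the other Ftx KO females lay on slides 3 and 4. No slide held both WT and Ftx KO females, so slide and genotype cannot be told apart in females from these arrays alone. The lens itself was plainly sampled, since 21 of 25 lens structural genes passed the minimum and 10 of the 21 read above 100000 in WT females.

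In females without Ftx, 6 of the 8 regulators were lower and none was higher. Hsf4, Foxe3 and Prox1 stood at 0.503, 0.526 and 0.556 of the WT female level, and Sox1, Gata3 and Pitx3 at 0.62, 0.62 and 0.639. Maf, at 0.963, and Tdrd7, at 0.805, did not pass the test. The test was limma over all 20 eyes with Benjamini-Hochberg adjustment across all probes, and a probe was called when its adjusted p fell under 0.05. This comparison called 32.7% of all probes, and 16.2% of all probes were called lower. The 8 genes were chosen with earlier results of these data known, so their count is not independent of these data. The median log2 fold change was -0.69 over the 8 regulators and -0.01 over all probes tested. At an unadjusted p under 0.05 there were 7 of 8 regulators, Tdrd7 included, beside 43.3% of all probes. RNA came from eyes and not from isolated lenses, so fewer lens cells and less RNA per lens cell cannot be told apart in these values. With slide as a fixed term none of the 8 passed, as described with the slides.

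The regulators of the fibre programme come first. Prox1 is a homeodomain factor that drives cell cycle exit and fibre elongation. It read 957, 855 and 945 in the 3 WT female eyes and 332 to 744 (median 578) in the 11 Ftx KO female eyes, and every mutant eye lay below every WT female eye. The log2 fold change was -0.85 ± 0.203 (SE, limma adjusted p = 0.00416). Ftx KO female eyes 4, 5 and 6, all on slide 3, were the lowest at 334, 332 and 363. The fourth eye of that slide read 607, within the range of the eyes of the other slides.

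Hsf4, a heat shock factor that activates genes of late fibre maturation, had the largest fitted change of the 8. Its signals were 597, 646 and 733 in WT females and 239 to 582 (median 314) in Ftx KO females, so the groups did not overlap, although eye 3 came close to the WT range at 582. The log2 fold change was -0.99 ± 0.191 (SE, limma adjusted p = 0.000915). Sox1, which binds gamma-crystallin promoters, read 2790, 3001 and 3371 in WT females and 1526 to 2422 (median 1887) in Ftx KO females. Its log2 fold change was -0.69 ± 0.138 (SE, limma adjusted p = 0.00118), again without overlap. With no minimum signal, the second Sox1 probe gave -0.39 in females (limma adjusted p = 0.128) and 0.22 in males (0.713).

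Gata3, a zinc finger factor that is needed for fibre cells to leave the cycle, read 891, 778 and 1194 in WT females. The Ftx KO female eyes lay between 453 and 668 (median 605), all below the lowest WT eye. The log2 fold change was -0.69 ± 0.128 (SE, limma adjusted p = 0.000673). The WT eyes were spread here (mean 954 ± 215, SD, n = 3), with eye 4 well above the other two.

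The epithelial factors fell with them. Foxe3, a forkhead protein, read 1074, 751 and 1369 in WT female eyes and 430 to 708 (median 527) in Ftx KO female eyes. Its log2 fold change was -0.93 ± 0.161 (SE, limma adjusted p = 0.000441). Pitx3, a bicoid-type homeodomain protein, read 2765, 2165 and 2905 against 1391 to 1934 (median 1622). It had the narrowest error of the 8, with a log2 fold change of -0.65 ± 0.1 (SE, limma adjusted p = 0.000194). For both genes all 11 mutant eyes lay below all 3 WT female eyes. Groups were separated in this way for 6 of the 8 regulators and for 9.88% of all probes tested.

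Maf and Tdrd7 did not pass the test. Maf, the large Maf factor that switches on crystallin genes in fibres, read 5143, 5692 and 7209 in WT females and 4254 to 8451 (median 5690) in Ftx KO females. Of the 11 mutant eyes, 2 lay below the WT female range, 2 above it and the rest inside it. The log2 fold change was -0.05 ± 0.169 (SE, limma adjusted p = 0.829), with a 95% confidence interval from -0.41 to 0.30. That interval does not reach the fitted change of any of the 6 genes called, but the difference between Maf and these genes was not itself tested. The second Maf probe gave 0.06 ± 0.144 (SE, limma adjusted p = 0.774).

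Tdrd7 lay nearer the threshold. It read 20342, 17240 and 23349 in WT females and 13043 to 22150 (median 14934) in Ftx KO females, and 7 of 11 mutant eyes lay below the WT range. The log2 fold change was -0.31 ± 0.132 (SE, limma adjusted p = 0.0751), with an interval from -0.59 to -0.04. The plot of the signal in each eye shows these distributions.

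**Figure D1:**
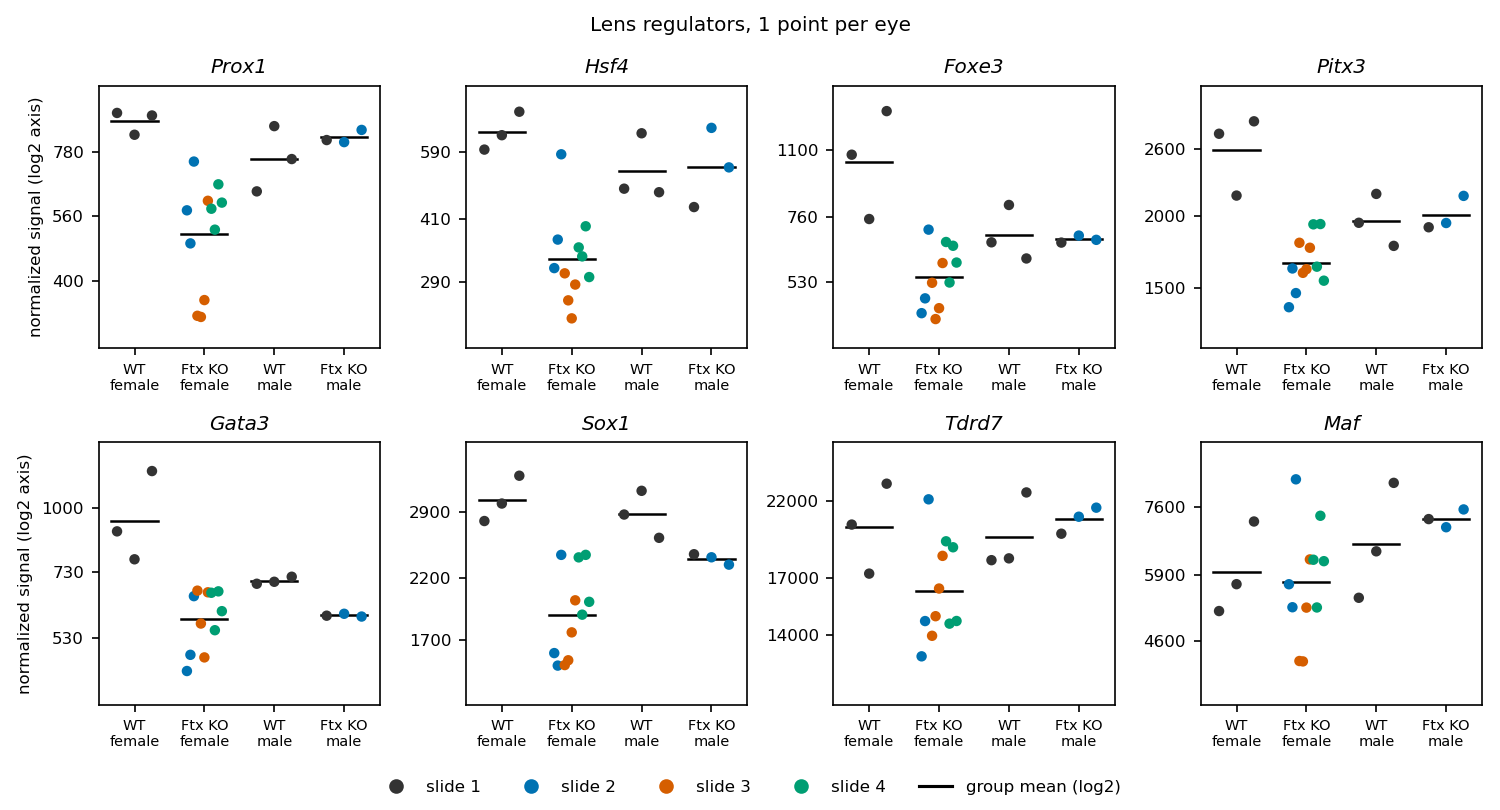
Normalized signal of the representative probe of each regulator in arbitrary units on a log2 axis, with 1 point per eye (Ftx KO female points are the mean of 2 arrays), coloured by slide, and a line at the group mean of log2 values. In Prox1, Hsf4, Foxe3, Pitx3, Gata3 and Sox1 all 11 Ftx KO female points lie below the 3 WT female points, while in Tdrd7 and Maf the points of these groups overlap.

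The 2 arrays of an Ftx KO female eye, always on the same slide, give the size of the measurement error within a slide. They do not hold the step between slides or scan days. Between the 2 arrays of an eye the median absolute log2 difference was 0.03 for Tdrd7, 0.04 for Sox1, 0.08 for Prox1, Foxe3 and Maf, 0.10 for Hsf4, 0.11 for Gata3 and 0.13 for Pitx3. The largest such difference in any eye ran from 0.12 for Tdrd7 to 0.44 for Maf and Prox1. The range of log2 signal over the 11 eyes was wider for each of the 8, from 0.47 for Pitx3 to 1.29 for Hsf4.

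In males none of the 8 regulators passed the threshold in Ftx KO against WT eyes. No probe on the array was called in this comparison, 0% of those tested, although 12.7% had an unadjusted p under 0.05, which none of the regulators reached in limma. The median log2 fold change of the 8 was 0.03. Prox1 read 637, 894 and 754 in WT males and 832, 823 and 877 in Ftx KO males (log2 fold change 0.16 ± 0.254, SE). The Ftx KO males thus sat inside the WT male range. Hsf4 read 483, 652 and 474 in WT males and 437, 672 and 542 in Ftx KO males, so the lowest and the highest of these 6 eyes were both mutant.

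Foxe3 read 660, 812 and 603 in WT males and 659, 685 and 669 in Ftx KO males. Pitx3 read 1944, 2179 and 1774 in WT males and 1909, 1942 and 2162 in Ftx KO males. For both genes every mutant eye lay inside the WT male range. Hsf4 (0.03), Foxe3 (-0.03) and Pitx3 (0.03) had log2 fold changes close to 0, with standard errors of 0.24, 0.202 and 0.126. Maf read 5407, 6442 and 8339 in WT males and 7275, 7055 and 7545 in Ftx KO males (log2 fold change 0.14 ± 0.212, SE). Tdrd7 read 18040, 18151 and 22670 against 19725, 20888 and 21535 (0.09 ± 0.165, SE). These mutant eyes too lay inside the WT male range. On the second Maf probe all 3 Ftx KO males, at 148 to 158, lay above all 3 WT males, at 124 to 133, with a log2 fold change of 0.25 ± 0.18 (SE, limma adjusted p = 0.598).

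Sox1 and Gata3 were the regulators in which all 3 Ftx KO male eyes lay below all 3 WT male eyes. Sox1 read 2866, 3165 and 2601 in WT males and 2429, 2398 and 2325 in Ftx KO males, a log2 fold change of -0.27 ± 0.173 (SE, limma adjusted p = 0.546). Gata3 read 691, 698 and 715 in WT males and 592, 597 and 589 in Ftx KO males, a log2 fold change of -0.24 ± 0.16 (SE, limma adjusted p = 0.556). Neither passed the test, and 8.02% of all probes showed the same separation in males. The methods' t-test put 1 of 8, Gata3, under the unadjusted threshold and none after adjustment, beside 9.38% and 0% of all probes. With 3 eyes in each group the intervals are wide: for Hsf4 the 95% confidence interval ran from -0.47 to 0.53.

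**Figure D2:**
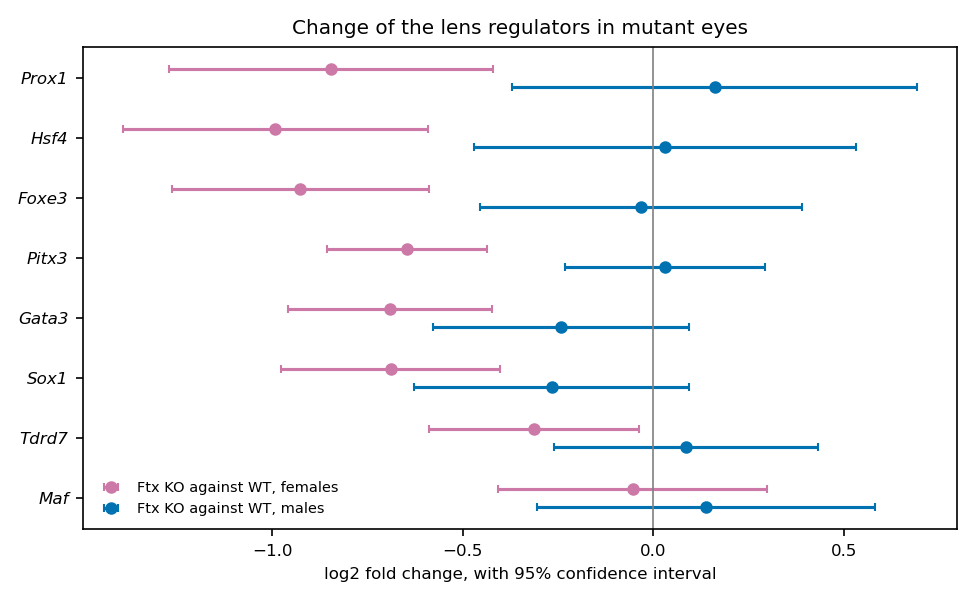
Log2 fold change of each regulator in Ftx KO females against WT females and in Ftx KO males against WT males, with 95% confidence intervals from limma. The female intervals of Prox1, Hsf4, Foxe3, Pitx3, Gata3, Sox1 and Tdrd7 lie below 0, although Tdrd7 did not pass after adjustment, and all 8 male intervals include 0.

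Whether the change differed between the sexes was tested directly as the female change minus the male change. The difference was negative for all 8 regulators, from -1.02 for Hsf4 and -1.01 for Prox1 to -0.19 for Maf on the log2 scale. None was called (limma adjusted p from 0.168 for Pitx3 to 0.782 for Maf), nor was any other probe (0%). At an unadjusted p under 0.05 there were 5 of 8 regulators (Prox1, Foxe3, Hsf4, Pitx3 and Gata3) beside 13.4% of all probes. A female change that passed the threshold and a male change that did not are therefore not shown to differ.

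The WT sexes enter this difference. WT females read higher than WT males for Foxe3 (log2 fold change 0.59 ± 0.202, SE), Gata3 (0.42 ± 0.16) and Pitx3 (0.40 ± 0.126), all on slide 1. Their limma adjusted p were 0.297, 0.337 and 0.269, and none of the 8 was called, beside 0.0839% of all probes. Without WT female eye 4 the values were 0.39 for Foxe3 and 0.25 for Gata3. In Gata3 all 3 WT female eyes lay above all 3 WT male eyes, as they did for 10.7% of all probes. These 3 genes were also the ones with an unadjusted p under 0.05, beside 10.8% of all probes.

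Between mutants of either sex, Ftx KO females read lower than Ftx KO males for Hsf4 (log2 fold change -0.72 ± 0.191, SE, limma adjusted p = 0.0686) and Prox1 (-0.72 ± 0.203, adjusted p = 0.0816). None of the 8 was called, beside 1.5% of all probes, and 5 of 8 had an unadjusted p under 0.05 beside 15.7%. Prox1 was lower in all 11 Ftx KO female eyes than in all 3 Ftx KO male eyes, a separation seen for 2.7% of all probes. Gata3 differed by only -0.03 ± 0.128, with an interval from -0.29 to 0.24. Slide 2 holds mutants of either sex, and within it the mean of the 3 females lay below the mean of the 2 males for all 8 genes, with log2 differences of -0.57 for Hsf4, -0.52 for Prox1, -0.46 for Pitx3 and -0.18 for Gata3. In Prox1 and Pitx3 every female of that slide lay below both males, while in the other 6 genes Ftx KO female eye 3 lay above at least 1 of them. Over all probes 50.5% had the lower mean in the females of slide 2 and 16.6% had every female below both males. These within-slide values rest on 5 eyes and were given no test.

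The Ftx KO females of each slide were also taken alone. The WT females stayed on slide 1, which was scanned on another day than slides 2 to 4, so these values hold the step between slides or scan days too. Against WT females, Hsf4 changed by -0.69 on slide 2, -1.27 on slide 3 and -0.94 on slide 4. Prox1 changed by -0.63, -1.22 and -0.64 on these slides. With slide as a fixed term, so that the step between slides is set by the 3 Ftx KO males, the 6 genes had changes from -0.66 (Prox1) to -1.16 (Hsf4) but none passed (limma adjusted p from 0.101 to 0.397), and 18 probes passed on the whole array in place of 7011.

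The study's own criteria, a fold change above 1.2 or below 0.8 with an unadjusted p under 0.05, were also applied to the limma fit. They took the same number of regulators, 6 of 8, in Ftx KO against WT females beside 30.1% of all probes, and 0 of 8 in males beside 8.57%. They took 3 of 8 between WT females and WT males (6.78%), 4 of 8 between Ftx KO females and Ftx KO males (8.49%) and 5 of 8 for the difference between the sexes (10.9%). 

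The structural genes of the lens moved in the same direction. Of 21 tested, 17 were called lower in Ftx KO females and none higher (16.2% of all probes were called lower), with a median log2 fold change of -0.50. With slide as a fixed term 0 of the 21 were called. The filament protein Bfsp1 fell by 1.11 on the log2 scale (SE 0.18), the membrane protein Lim2 fell by 1.04 (SE 0.15) and the connexin Gja3 fell by 1.02 (SE 0.29). Without WT female eye 4 the number called lower was 10 of 21, and 12.6% of all probes were called lower. Among Ftx KO males none was called and the median was -0.04. Against Ftx KO males, 6 of 21 were lower in Ftx KO females, beside 1.14% of all probes, with Bfsp1 at -0.97, Crygb at -0.81, Bfsp2 at -0.71 and Cryab at -0.62.

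The median change was smaller in the brighter structural genes, a difference that was not tested. The 10 genes above 100000 in WT females had a median of -0.36 and the other 11 a median of -0.89. Cryaa, the alpha-crystallin that acts as a chaperone, is the plainest case, since its brightest probe read 322449 in WT and 339311 in Ftx KO females (log2 fold change 0.08 ± 0.0659, SE, limma adjusted p = 0.4) while its other probe read 19606 and 11249 (-0.81 ± 0.161, adjusted p = 0.00116). No array flagged either probe as saturated. In Cryba4, Crybb1, Crygc and Crygf the brightest probe also had the smallest fall. Cryab went the other way, at -0.87 ± 0.125 (SE) on its brighter probe and -0.70 ± 0.123 on its dimmer probe. Near-identical gamma-crystallin genes may also share signal. Cryge, Cryba2 and Mip were the other structural genes that did not pass, with log2 fold changes of -0.10, -0.46 and -0.26.

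Crystallin promoters are where several of these regulators act, so the 250 bases before the start site of 3 crystallin genes are shown, from RefSeq on GRCm38.p6. Capitals mark TGCTGA or its reverse complement, the core of the site that large Maf proteins recognise.
Cryaa, chr17:31677681-31677930, plus strand: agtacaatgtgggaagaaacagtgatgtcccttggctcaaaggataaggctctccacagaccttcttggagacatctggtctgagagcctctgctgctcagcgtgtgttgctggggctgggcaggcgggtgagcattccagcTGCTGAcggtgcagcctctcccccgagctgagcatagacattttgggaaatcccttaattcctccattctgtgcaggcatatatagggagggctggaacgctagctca
Crybb1, chr5:112255570-112255819, plus strand: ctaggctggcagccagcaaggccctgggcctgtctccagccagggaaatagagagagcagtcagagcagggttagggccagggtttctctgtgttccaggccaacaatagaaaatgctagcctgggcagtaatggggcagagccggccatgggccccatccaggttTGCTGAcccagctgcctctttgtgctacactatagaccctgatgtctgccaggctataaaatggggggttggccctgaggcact
Cryga, chr1:65103364-65103613, minus strand: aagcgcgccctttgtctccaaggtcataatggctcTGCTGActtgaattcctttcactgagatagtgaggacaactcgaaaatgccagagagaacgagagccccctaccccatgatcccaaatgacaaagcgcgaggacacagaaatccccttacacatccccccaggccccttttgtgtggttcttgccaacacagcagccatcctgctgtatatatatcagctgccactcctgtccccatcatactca
The sites begin 108, 84 and 215 bases before the start sites of Cryaa, Crybb1 and Cryga. Of 23 structural genes found in the promoter table, 13 (56.5%) hold these letters on either strand of this window, as do 16.1% of all 32851 promoters. Of 6 regulators found, Gata3 and Tdrd7 hold them. The letters AACAAT, a Sox recognition core, stand before 3 of the 23 structural genes and in 9.42% of all promoters. GAANNTTC and TTCNNGAA, which a heat shock factor site can contain, each stand before 1 of the 23 and in 6.69% and 7.17% of all promoters. These are matches of letters, and the array measured no binding.

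Among 13 other regulators of the lens, none was called lower by its representative probe and 4 were called higher in Ftx KO females, beside 16.2% and 16.5% of all probes: Eya1 (log2 fold change 1.03 ± 0.31, SE), a co-activator that also acts in mesenchyme, Zeb2 (0.40 ± 0.076), Sox2 (0.37 ± 0.071) and Mab21l1 (0.35 ± 0.12). Sox2 and Zeb2 stood above the WT female range in all 11 mutant eyes, as did 10% of all probes, and both genes are active outside the lens too, Sox2 strongly so in retinal progenitors. In Ftx KO against WT males the log2 fold changes were 0.77 for Eya1, 0.46 for Mab21l1, 0.25 for Zeb2 and 0.11 for Sox2, none of them called. Pax6, the factor upstream of most of these genes, had 2 probes that disagreed: the brighter gave -0.27 ± 0.121 (limma adjusted p = 0.0883) and the dimmer -0.91 ± 0.168 (adjusted p = 0.000659).

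Of 5 genes known to act downstream of the 8, only Cdkn1b, a cell cycle inhibitor that rises as fibres form, was called, and it was higher (0.18 ± 0.057, SE, limma adjusted p = 0.0202), a count near the 16.5% of all probes called higher. Hspb1, a small heat shock protein, gave 1.24 ± 0.49 with an adjusted p of 0.0593, and Cdkn1c, Pdgfra and Epha3 did not pass either.

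Markers of tissues around the lens moved in the same comparison. Of 10 mesenchyme genes, the 6 above the minimum were all called higher in Ftx KO females, beside 16.5% of all probes, with a median log2 fold change of 2.22, led by Lum (3.24 ± 0.87, SE), Dcn (2.50 ± 0.84), Foxc1 (2.23 ± 0.56) and Col1a1 (2.21 ± 0.75). The summed signal of the 6 was 3670 to 5301 in WT females, 5770 to 49894 in Ftx KO females, 5302 to 13700 in WT males and 4751 to 9795 in Ftx KO males. Foxc2, Twist1 and Postn, also defining mesenchyme, stayed under the minimum.

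The part of this shift in the regulators' values was not tested. All 11 Ftx KO female eyes had a mesenchyme sum above every WT female eye. With the 6 Ftx KO female eyes whose sum did not exceed that of the highest WT eye, a male at 13700, a comparison added after the values were known, the same 6 regulators passed with log2 fold changes from -0.91 (Hsf4) to -0.52 (Sox1), limma adjusted p from 0.00275 to 0.0106, and 28.1% of all probes called. Maf then gave 0.09 and Tdrd7 -0.16. These 6 eyes, at 5770 to 13195, were not matched to the WT females in mesenchyme signal.

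Pigment genes were spread widely among Ftx KO females, with a summed signal of 3264 to 33528 against 5048 to 7450 in WT females, and 1 of 5 tested, Mitf, was called higher (log2 fold change 0.73 ± 0.23, SE). Of 6 erythroid genes Hbb-bh1 (1.28 ± 0.28) and Hbb-y (0.53 ± 0.18) were called higher, and the summed signal of the list was 160701 to 311809 in Ftx KO females and 179192 to 191856 in WT females. In males this sum was 218955 to 461144 in Ftx KO and 153587 to 190040 in WT eyes. Among 3 surface ectoderm genes tested, Cdh1, the cadherin of epithelia including the lens epithelium, fell (-0.74 ± 0.14, SE, limma adjusted p = 0.000763), while the keratins Krt5, Krt14 and Krt15 were under the minimum. Of 8 retinal progenitor genes 1 was called, and of 4 endothelial genes and 1 muscle gene tested none was. These counts are to be read against the 32.7% of all probes called and the 16.5% called higher. The part of these shifts in the regulators' values was not tested.

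**Figure D3:**
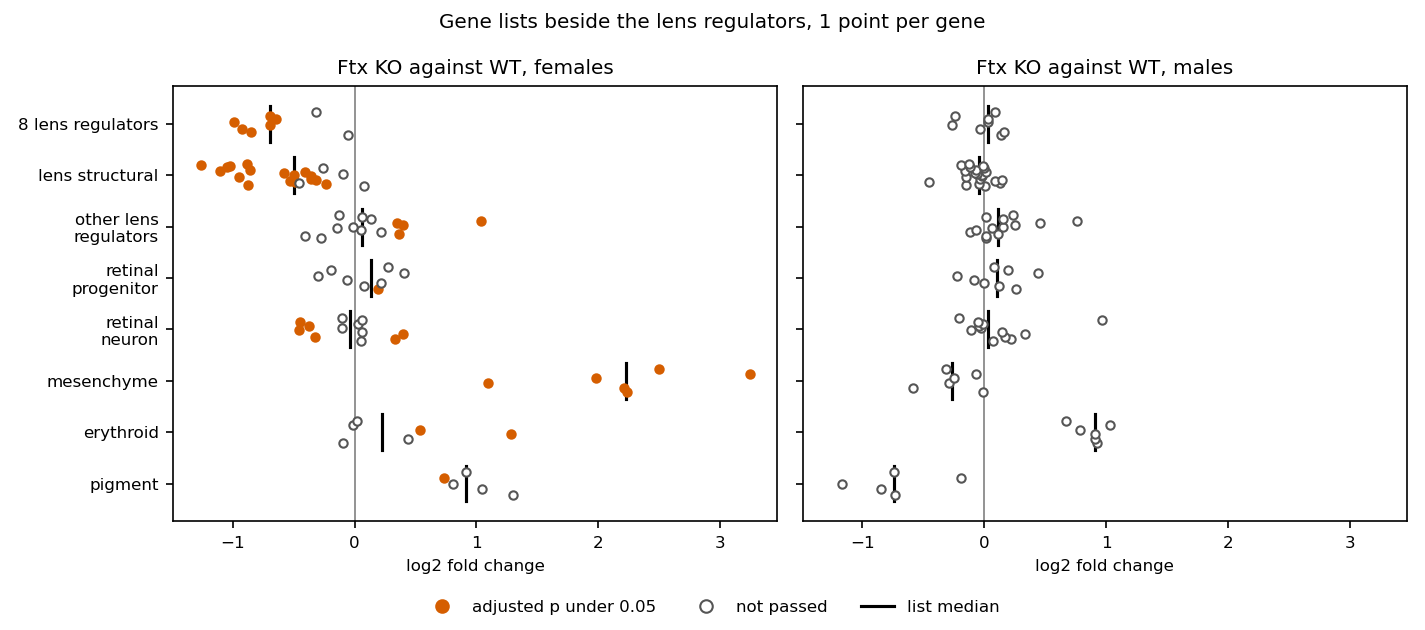
Log2 fold change of each tested gene in Ftx KO against WT females (left) and males (right), with 1 point per gene grouped by list, filled where the limma adjusted p was under 0.05, and a line at the list median. In females the 8 lens regulators (median -0.69) and the lens structural genes (median -0.50) lie mostly below 0 and the mesenchyme genes (median 2.22) above 0, and in males no point is filled.

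Within the 11 Ftx KO female eyes, the regulators could be set against the lens structural level of the same eye, the mean of the 21 structural genes on the log2 scale after centring each gene. A slope of 1 means that a regulator changed as much as this mean from eye to eye. The mean includes the 10 genes above 100000, whose median change in females was -0.36, beside -0.89 for the other 11. A slope above 1 therefore does not show that a regulator changed more than the dimmer structural genes. The fitted slopes were positive for all 8: 1.37 ± 0.426 (SE) for Prox1, 1.2 ± 0.362 for Hsf4, 1.1 ± 0.296 for the representative probe of Maf, 1.05 ± 0.245 for Sox1, 0.93 ± 0.25 for Foxe3 and 0.92 ± 0.22 for Tdrd7. Gata3 (0.39 ± 0.303) and Pitx3 (0.20 ± 0.229) had shallower slopes, and their intervals included 0. So did that of the second Maf probe, at 0.34 ± 0.293. The 3 eyes lowest in structural level, eyes 5, 4 and 1, were also the 3 highest in summed mesenchyme signal, at 31378, 23615 and 49894, and were among the 4 highest in pigment signal. The part of these tissues in the slopes was not tested.

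Across all probes the median slope was 0.05 and 0.354% were called in limma. None of the 8 was called (adjusted p from 0.0868 for Sox1 to 0.666 for Pitx3), and 6 of 8 had an unadjusted p under 0.05, as did 16.8% of all probes. Eyes 4 and 5, both on slide 3, were lowest in structural level, in Prox1 and in the representative Maf probe, and without them the slope of Prox1 was 0.73 and that of Maf 0.75. On the second Maf probe eyes 6 and 2 were lowest, at 99.5 and 108.

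**Figure D4:**
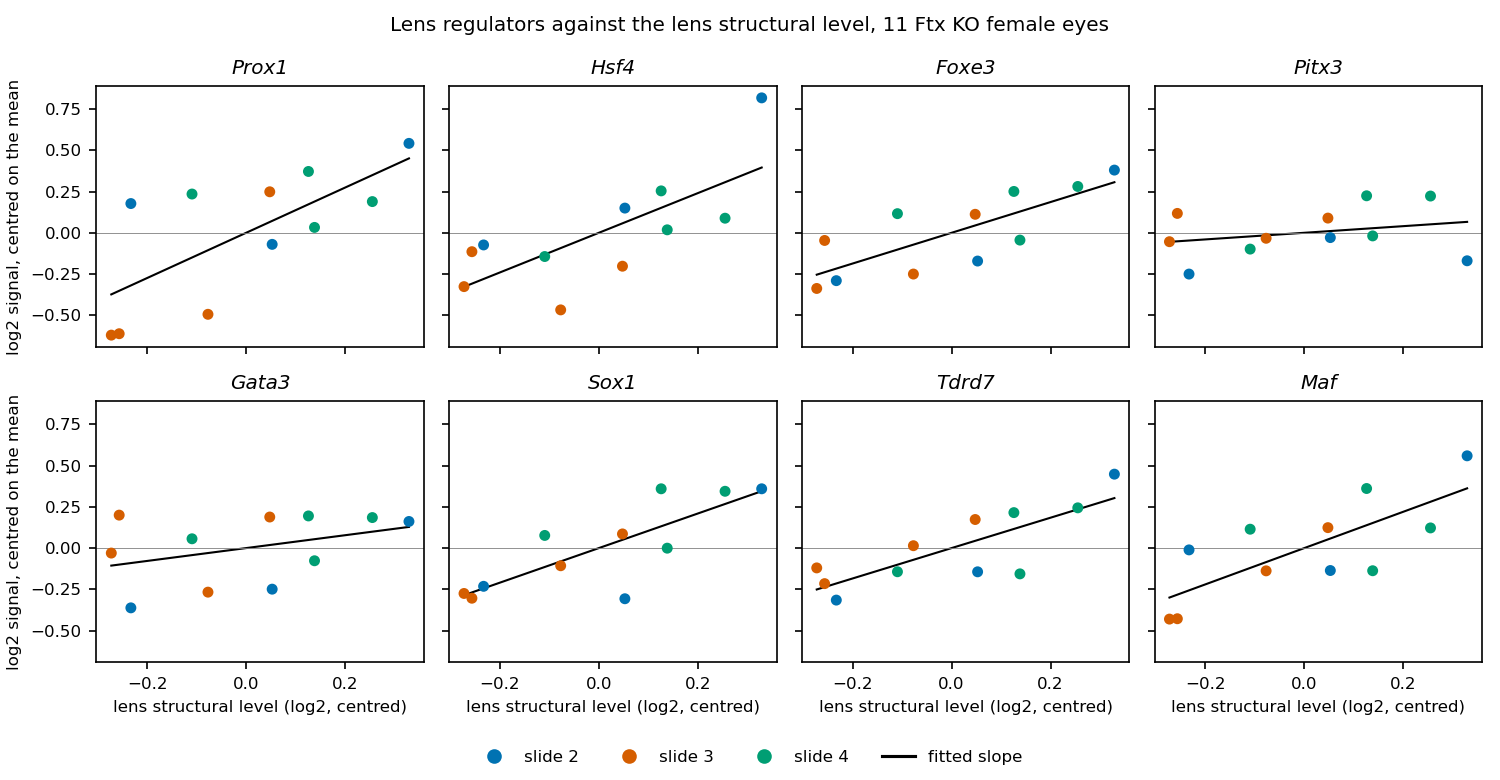
Log2 signal of each regulator, centred on its mean, against the lens structural level of the same eye (log2, centred) in the 11 Ftx KO female eyes, coloured by slide, with the fitted limma slope. Prox1 has the steepest line (slope 1.37) and Pitx3 the flattest (slope 0.20), and the lowest Prox1 and Maf points come from slide 3.

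The genes whose signal was most like each regulator over the 20 eyes were found by Pearson's r among 11293 other named genes. The eyes share groups, slides and scaling, so r is a description only. Lim2 was closest to Hsf4 (r = 0.957), followed by Metrnl and Gadd45g. Gja3 was closest to Prox1 (0.928), followed by Slc24a4 and Cars, and Tom1 was closest to Foxe3 (0.954). Foxe3 was the closest gene to Gata3 (0.899) and second to Tom1 for Pitx3 (0.879 and 0.886), with Rbm24 and Sgca next for Gata3 and Cbs next for Pitx3. Sox1 was closest to Hrg (0.930), then Slc24a4 and Gpr137b-ps, Tdrd7 to Rnf123, Fgfr3 and Flad1 (0.905 to 0.909), and Maf to Vit, Hspb3 and Caprin2 (0.803 to 0.810). Among the 11 mutant eyes alone, Maf ran with Prox1 (r = 0.919) and Sox1 with Foxe3 (0.903), while Pitx3 and Prox1 had an r near 0 (-0.05).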

How the data were processed

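RNA of 20 E13.5 eyes was measured on 31 1-colour (Cy3) Agilent arrays. The authors deposited, per the file headers, the background-subtracted intensity of 62976 spots per array from Feature Extraction 11.0.1.1, with probe positions on mm9. The series table holds the same intensity values within 0.498%, not normalized. The median intensity per array was 34.2 to 75.0, with 48.2% to 70.4% of spots well above background, and the number of eyes limits the precision.

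Control spots were left out, as were spots flagged non-uniform (120) or apart from their copies (5639). Intensities were normalized with the quantile-spline method the study names, coded anew in R 4.3.3 with 100 sampled quantiles, 5 rounds and an offset of 5, copies of a probe and then both arrays of an eye were combined as log2 means, and probes whose mean of 4 group means exceeded 100 were tested. Groups were compared with limma 3.58.1 (trend on the mean) in one fit over 20 eyes, with Benjamini-Hochberg adjustment over 21457 probes, and the code was tested on simulated data. Fits across eyes within Ftx KO females used the structural level as covariate.

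The members and gene lists were chosen with earlier results of these data known. All 8 genes are named, with at most 4 called genes per direction from each other list, and the 3 genes most correlated with each member. Genes of other lists named without passing were chosen after their values were seen. A few genes that this rule would name are not reported here. Alternatives tried were scaling to the 75th percentile, quantile normalization, normexp, the series table, other filters, single arrays, left-out eyes, slide or replicate number in the fit, the study's criteria and the methods' t-test, the mean of all probes of a gene, and eyes chosen by mesenchyme signal. Sequences came from the files and from RefSeq promoters (6 of 8 members matched). Figures were drawn with matplotlib 3.10.9.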

Additional observations from a re-analysis of the deposited data

Results flagged for a closer look

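Prox1 is listed because its mutant eyes all lay below the WT mean in females and above it in males. In Foxe3, Sox1 and Gata3 all mutant eyes of either sex lay below the WT mean. The share of all probes with either pattern was not determined. For Prox1 each of the 11 Ftx KO female eyes lay below the WT female mean and each of the 3 Ftx KO male eyes above the WT male mean. Its female change minus the male change was -1.01 ± 0.325 (SE) on the log2 scale. The male change itself, 0.16 ± 0.254 (SE), did not pass, and it ran from 0.039 to 0.28 with single eyes left out. A change in opposite directions is therefore not shown, and the difference for Hsf4 was of similar size at -1.02. The direct test of the Prox1 difference gave a limma adjusted p of 0.215 over all probes. With the Ftx KO females of slide 3 alone the adjusted p of this difference was 0.00636, where 16.9% of all probes were called, and over all alternatives it ranged from 0.00636 to 0.535.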

How the results depend on the processing

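The 6 falls in females kept their direction under each of 27 alternatives. Slide as a fixed term left 0 of 8 members and 0 structural genes called. The unnormalized series table left 3 members, all lower, beside 17.6% of all probes called and 1.72% called lower. The methods' t-test gave 4 of 8 (Prox1, Sox1, Hsf4 and Pitx3) at its unadjusted threshold (38.0% of all probes) and 3 after Benjamini-Hochberg adjustment (21.5%). Foxe3 and Gata3 passed it at neither threshold, and Pitx3 was lost after adjustment. For the t-test the causes of the losses were not tested. Leaving out single WT or Ftx KO male eyes left 6 members called each time and 10 to 17 structural genes, 10 without WT female eye 4. Between mutants of either sex the count rose from 0 to 5 with slide 3 females alone (31.6% of all probes), to 4 under the study's criteria and to 4 by t-test after adjustment (6.03%). The difference between the sexes rose from 0 to 5 with slide 3 females alone (16.9% of all probes) and to 5 under the study's criteria, which also gave 3 members between WT sexes. Causes were not tested.

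Of the values of single genes under an alternative, 1013 kept their direction and side of the threshold, 16 newly passed, 12 no longer passed and 31 changed sign, as follows. In females against WT, Maf was 0.23 with the series table, 0.079 with slide as a term, 0.083 and 0.061 with slide 2 or slide 4 females alone, 0.0032 as the mean of its probes, 0.094 with eyes chosen by mesenchyme signal, and -0.16 to 0.084 with single eyes left out. In males, the series table gave -0.087 for Hsf4, -0.055 for Pitx3 and -0.0048 for Tdrd7, slide as a term gave -0.28 for Hsf4 and -0.037 for Pitx3, and slide as a random block gave -0.15 for Hsf4. With single eyes left out, male values ran from -0.0081 to 0.30 for Maf, -0.13 to 0.089 for Foxe3, -0.12 to 0.19 for Hsf4 and -0.040 to 0.11 for Pitx3. Between WT sexes, the series table gave -0.088 for Sox1 and -0.11 for Tdrd7, and single eyes left out gave -0.30 to 0.013 for Maf and -0.059 to 0.16 for Tdrd7. Between mutants of either sex Gata3 was 0.16 with the series table, 0.063 with slide 4 females alone and 0.037 with eyes chosen by mesenchyme signal. The Maf difference between the sexes was 0.16 with the series table. In the unnormalized series table the median over all probes was itself 0.23 in females, -0.10 in males and -0.15 between WT sexes. It was 0.19 between mutants and 0.34 for the difference between the sexes.

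The replicate numbers are only shared numbers: deviations of equally numbered eyes correlated from -0.21 to 0.09 between WT and Ftx KO females. With the replicate block 7 of 8 members were called in females, Tdrd7 included (-0.46, adjusted p = 0.0392), 4352 probes were called in place of 7011, and Maf between WT sexes was 0.0051. Tdrd7 also passed with slide 3 females alone (limma adjusted p = 0.026), where 44.8% of all probes were called.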

Other observations

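The neural retina of the same eyes was mixed in direction. Of 12 retinal neuron genes, 4 were called lower in Ftx KO females, Tubb3 (log2 fold change -0.46 ± 0.12, SE), Ptf1a (-0.45 ± 0.15), Neurod1 (-0.37 ± 0.11) and Atoh7 (-0.32 ± 0.1), and 2 were called higher, Elavl4 (0.40 ± 0.13) and Isl1 (0.33 ± 0.12), by limma with adjustment over all probes. Over the whole array 16.2% of probes were called lower and 16.5% higher. Atoh7, Ptf1a and Neurod1 are proneural factors of newborn retinal neurons, and Isl1 marks ganglion cells. The median of the 12 was -0.04, and none was called in males.

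Cx3cr1, a receptor of resident macrophages and microglia, was higher in Ftx KO females (0.52 ± 0.11, SE, limma adjusted p = 0.00175) and lay above the WT female range in all 11 eyes, as did 10% of all probes. The other 4 macrophage genes tested, Csf1r, Cd68, Aif1 and C1qa, did not pass, and 16.5% of all probes were called higher.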
